A study of Homo sapiens with 51 samples.

Results

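The 10 claudin genes described here were CLDN1, CLDN3, CLDN4, CLDN5, CLDN6, CLDN7, CLDN9, CLDN10, CLDN11 and CLDN18, taken by name from a count table of 58051 gene rows. All 10 passed the filter on low counts, as did 19603 genes in all. Of 14 further claudin genes in the table, 6 passed it.

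The cells were H1, an established line of human embryonic stem cells, in 51 libraries that form 17 groups of 3. The untreated group was sampled in mTeSR1, the maintenance medium, on growth factor-reduced Matrigel. One treatment was Activin at 100 ng/mL with BMP4 at 10 ng/mL, and the other was BMP4 alone at 50 ng/mL. Each was sampled at 1, 6, 12, 24, 36, 48, 72 and 96 h. All treated cells were also in TeSR E5 with insulin, human FGF2 and a compound the labels spell LY29004, so a comparison with the untreated group takes in the change of medium and these additions as well as the growth factors. The treatments differ from each other in Activin and in the BMP4 dose, and these cannot be told apart. H1 is 1 line, and the replicate numbers in the labels are not tied to separate cultures. The p-values therefore reflect only how far these libraries differ, which may be technical variation.

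Claudins are membrane proteins that polymerise into the strands of tight junctions, the belts that close the gap between neighbouring epithelial or endothelial cells. Some members seal the gap against ions and others form charge-selective pores through it, so the set of claudins a cell makes decides what its epithelium lets through. Occludin, tricellulin and the JAM proteins share the junction with them, and the ZO scaffold proteins bind their tails inside the cell. Pluripotent stem cells grow as an epithelial sheet, and cells that leave such a sheet during gastrulation take their junctions apart.

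Total counts ran from 22.8 to 30.4 M per library. The mitochondrial share of counts was 2.29% to 2.75% in untreated libraries, 0.607% to 0.914% at 72 h and 1.15% to 1.80% at 96 h of Activin+BMP4, and 0.705% to 1.38% and 0.77% to 1.6% at those times of BMP4. It was thus lower late in both treatments, and its part in the claudin results was not tested. Levels are given as CPM, the count relative to the library total, with totals scaled by the TMM method, as mean ± SD with n = 3 libraries. Fold changes come from 1 edgeR quasi-likelihood fit over all groups, on the log2 scale with a standard error (SE). A gene was called when its Benjamini-Hochberg adjusted p was under 0.05 and its fold change at least 2. In 3 groups 1 library stood apart from the other 2: Activin+BMP4 at 48 h replicate 2, Activin+BMP4 at 96 h replicate 3 and BMP4 at 12 h replicate 1. The 5 pluripotency markers (POU5F1, NANOG, SOX2, LIN28A, DPPA4) summed to 5560 to 5710 CPM in the untreated libraries, and the 5 definitive endoderm markers to 1.76 to 3.10 CPM.

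CLDN6, a claudin of embryonic epithelia, held most of the claudin transcript in every group. To compare genes, CPM was divided by the length in kb of all annotated exons of a gene, merged over its transcripts (GENCODE 29 basic set). In untreated cells CLDN6 stood at 314 ± 8.08 CPM per kb, or 86.0% of the sum over the 10 genes. CLDN7, a claudin of the lateral membrane of epithelial cells that binds EPCAM, followed at 35.2 ± 1.23 CPM per kb. CLDN3 at 4.92 ± 0.487 and CLDN10 at 4.45 ± 0.50 CPM per kb came next and differed by about as much as their SD. CLDN4 stood at 3.04 ± 0.233 CPM per kb. The merged exons are 4.196 kb for CLDN4 and 3.38 kb for CLDN10, with 3 transcripts each, and 1.274 kb for CLDN3, with 1. A shorter transcript in use would raise the level per kb, so the order of these genes and the shares depend on this length. Before division, CLDN4 was at 12.76 CPM and CLDN3 at 6.27 CPM. CLDN11 at 1.78 ± 0.213 and CLDN1 at 1.52 ± 0.155 CPM per kb also lay within about their SDs of each other. CLDN9, CLDN5 and CLDN18 were at or below 0.172 CPM per kb. The summed level was 365 ± 9.14 CPM per kb in untreated cells, 488 ± 22.8 after 36 h of BMP4, 210 ± 5.91 after 96 h of BMP4 and 247 ± 4.65 after 96 h of Activin+BMP4.

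**Figure D1:**
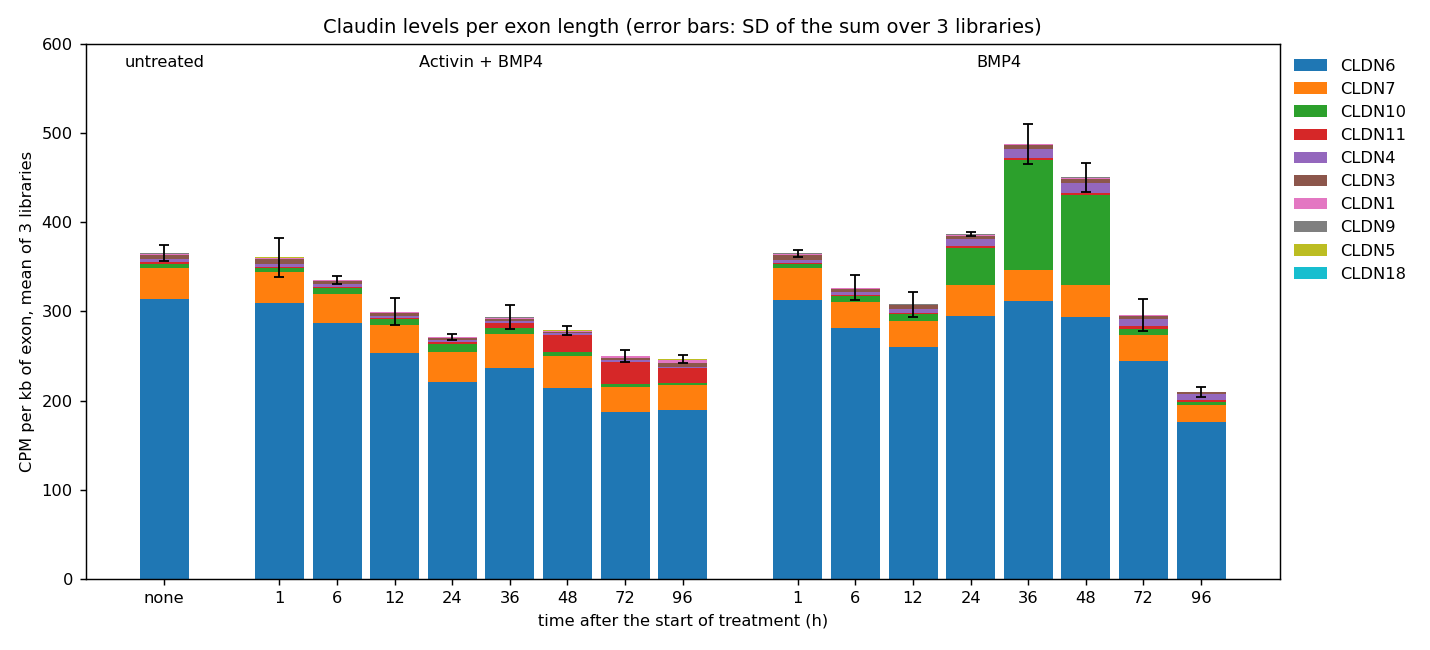
Stacked bars give the mean level of each claudin in CPM per kb of exon in the 17 groups, and error bars the SD of the sum over 3 libraries. CLDN6 fills most of each bar, CLDN10 adds a block of 124 CPM per kb at 36 h of BMP4, and CLDN11 a block of 25.0 CPM per kb at 72 h of Activin+BMP4.

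CLDN10 made the largest move of the 10. It forms ion-selective pores, and its 2 first exons give proteins that favour anions or cations. The gene lies at chr13:95433604-95579759 on the plus strand (GRCh38), and RefSeq (GRCh38.p14) places its starts far apart. The stretches before both starts are shown because the gene-level counts cannot say which start was used; capitals mark the letters CAGAC or, as read on the other strand, GTCTG, the core that SMAD proteins bind. The first runs up to the first annotated exon of the gene and the second up to the downstream start.
CLDN10 upstream start, chr13:95433505-95433603, plus strand: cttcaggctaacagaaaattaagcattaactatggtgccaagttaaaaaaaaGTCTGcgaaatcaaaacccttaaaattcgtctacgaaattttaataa
CLDN10 downstream start, chr13:95552470-95552719, plus strand: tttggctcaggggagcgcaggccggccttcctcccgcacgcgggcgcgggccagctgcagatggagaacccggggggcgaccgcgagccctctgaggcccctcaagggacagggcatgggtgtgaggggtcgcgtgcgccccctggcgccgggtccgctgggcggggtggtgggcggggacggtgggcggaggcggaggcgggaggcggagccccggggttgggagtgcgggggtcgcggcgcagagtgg

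In untreated cells CLDN10 was at 16.4, 13.2 and 15.5 CPM in the 3 libraries. With BMP4 it was at 25.3, 24.5 and 26.8 CPM at 12 h, at 142, 137.5 and 139.6 CPM at 24 h and at 381, 426 and 448 CPM at 36 h. It was at 335, 331.5 and 354 CPM at 48 h, at 26.1, 20.2 and 22.2 CPM at 72 h and at 10.1, 9.37 and 8.84 CPM at 96 h. The rise and the fall thus stand in all 3 libraries of each group, and the 96 h libraries lie below the untreated ones. With Activin+BMP4 the highest group was 24 h, at 28.9, 31.2 and 29.95 CPM, and the lowest was 96 h, at 7.26, 7.29 and 10.7 CPM, where the highest value belongs to the library that stood apart.

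BMP4 libraries exceeded Activin+BMP4 libraries in CLDN10 by a log2 fold change of 2.22 ± 0.08 (SE) at 24 h (adjusted p = 1.36e-24), 4.25 ± 0.09 at 36 h (adjusted p = 4.55e-34) and 4.53 ± 0.09 at 48 h (adjusted p = 9.06e-35). These are 4.65-fold, 19-fold and 23.1-fold. At 72 h the difference was 1.10 ± 0.10 (adjusted p = 5.77e-12), and without BMP4 replicate 1 it was 0.98, under 2-fold. At 96 h it was 0.16 and was not called. Within BMP4, CLDN10 rose 2.44-fold from 24 to 48 h and then fell by 5.18 ± 0.09 on the log2 scale from 48 to 96 h, or 36.2-fold. Within Activin+BMP4 it fell by 1.03 ± 0.10 on the log2 scale from 24 to 48 h. Its share of the per-length claudin level went from 1.22% ± 0.119 in untreated cells to 25.4% ± 0.91 at 36 h of BMP4, while that of CLDN6 went from 86.0% to 64.0% although CLDN6 stood at 312 CPM per kb there. With the exon lengths of the full annotation the share of CLDN10 was 25.8%. That set gives CLDN10 and CLDN6 the same lengths, 3380 and 1739 bases, so the swap cannot check the lengths of these genes.

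CLDN10 shares 1558 bases of exon with DZIP1, a cilium gene on the other strand, and whether the counting used strand is not given in the sources used here. DZIP1 was at 49.2 CPM in untreated cells and at 48.9, 51.9 and 48.7 CPM at 24, 36 and 48 h of BMP4, so it did not move with CLDN10. The antisense gene CLDN10-AS1 shares no exon base with it and stayed at or below 0.264 CPM in every library.

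CLDN4, a sealing claudin of many epithelia, moved at the same early times and stayed up. Its gene lies at chr7:73799542-73832693 on the plus strand. In untreated cells it was at 13.7, 11.8 and 12.8 CPM. With BMP4 it was at 21.3, 17.2 and 18.1 CPM at 12 h, at 32.2, 33.2 and 31.2 CPM at 24 h, at 46.4, 42.8 and 50.7 CPM at 48 h and at 26.9, 26.4 and 23.5 CPM at 96 h. With Activin+BMP4 it was at 11.9, 12.6 and 12.2 CPM at 12 h, at 8.06, 10.1 and 8.82 CPM at 48 h and at 5.63, 5.82 and 9.46 CPM at 96 h. From 12 h on, the lowest BMP4 library was above the highest Activin+BMP4 library. The fold change was 1.55 at 12 h, under the threshold although the adjusted p was 0.000295. BMP4 exceeded Activin+BMP4 by 1.53 ± 0.12 on the log2 scale after 24 h, 1.86 ± 0.12 after 36 h, 2.38 ± 0.12 after 48 h, 1.98 ± 0.13 after 72 h and 1.87 ± 0.13 after 96 h, with adjusted p from 2.22e-13 at 24 h to 5.25e-20 at 48 h. CLDN4 was thus called at each time from 24 h to 96 h.

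CLDN3, also a sealing claudin, lies near CLDN4 at chr7:73768997-73770270, on the minus strand. It fell with Activin+BMP4, from 6.10, 5.75 and 6.96 CPM in untreated cells to 1.81, 1.79 and 1.54 CPM at 48 h. With BMP4 it was at 5.85, 4.35 and 5.66 CPM at 48 h, and at 2.54, 3.10 and 2.72 CPM at 96 h. BMP4 exceeded Activin+BMP4 in CLDN3 by 1.16 ± 0.23 on the log2 scale at 36 h (adjusted p = 0.000117) and by 1.63 ± 0.24 at 48 h (adjusted p = 4.62e-07). At 96 h the Activin+BMP4 libraries were at 3.48, 3.91 and 9.12 CPM, the last being the library that stood apart. The difference there was -0.98 ± 0.22 (adjusted p = 0.000228), just under 2-fold, and -0.41 without that library (adjusted p = 0.0689). Within Activin+BMP4 CLDN3 rose by 1.69 ± 0.24 on the log2 scale from 48 to 96 h, and by 1.11 without that library.

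CLDN9, a claudin of the inner ear that is the neighbour of CLDN6 at chr16:3012456-3014505 on the plus strand, was low throughout, with 12 to 70 counts per group of 3 libraries. At 48 h it was at 0.775, 0.733 and 1.07 CPM with BMP4 and at 0.314, 0.208 and 0.0375 CPM with Activin+BMP4, and the groups did not overlap. BMP4 exceeded Activin+BMP4 by 1.27 ± 0.40 on the log2 scale at 24 h, 1.42 ± 0.40 at 36 h and 2.19 ± 0.44 at 48 h, with adjusted p of 0.0136, 0.00578 and 8.13e-05. The calls at 24 and 36 h rest on single libraries: the adjusted p was 0.0643 at 24 h without Activin+BMP4 replicate 2, 0.0598 without its replicate 3 and 0.0529 without BMP4 replicate 3, and 0.0575 at 36 h without Activin+BMP4 replicate 2. How the counting treated reads that match more than 1 claudin is not given in the sources used here.

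CLDN11 went the other way. It builds the tight junctions of myelin and of the Sertoli cell barrier in the testis, and its gene lies at chr3:170418865-170454733 on the plus strand. RefSeq (GRCh38.p14) gives it 2 starts as well, and the counts cannot say which was used. The stretch before the upstream one is shown beside those of CLDN10, the gene of the opposite pattern; it runs up to the first annotated exon and holds none of the 3 motifs searched, so no letter is in capitals.
CLDN11 start, chr3:170418618-170418864, plus strand: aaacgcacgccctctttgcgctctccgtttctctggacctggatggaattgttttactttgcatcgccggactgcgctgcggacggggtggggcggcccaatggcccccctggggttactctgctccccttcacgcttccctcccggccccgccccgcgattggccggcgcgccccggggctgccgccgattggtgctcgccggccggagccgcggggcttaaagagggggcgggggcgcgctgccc

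In untreated cells CLDN11 was at 3.33, 4.06 and 4.19 CPM. With Activin+BMP4 it was at 3.90, 3.33 and 3.17 CPM at 24 h, at 11.3, 11.5 and 12.8 CPM at 36 h, at 39.2, 40.5 and 41.6 CPM at 48 h, at 62.2, 53.6 and 46.9 CPM at 72 h and at 38.3, 39.1 and 26.5 CPM at 96 h. With BMP4 no library of any group was above 6.57 CPM. The 2 treatments thus overlapped at 24 h and were apart in all libraries from 36 h on. BMP4 fell short of Activin+BMP4 by a log2 fold change of -1.99 ± 0.15 (SE), -3.42 ± 0.13, -3.30 ± 0.12 and -2.73 ± 0.12 at 36, 48, 72 and 96 h, with adjusted p from 9.16e-15 at 36 h to 7.26e-25 at 72 h. Without the library that stood apart the 96 h value was -2.89. Within Activin+BMP4 CLDN11 rose by 3.54 ± 0.13 on the log2 scale from 24 to 48 h, or 11.6-fold. An annotated gene on the same strand, AC026316.5, shares 683 bases of exon with CLDN11. It has no row in the count table, so its level cannot be given.

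CLDN1, which closes the barrier of the epidermis, lies at chr3:190305701-190322475 on the minus strand. In untreated cells it was at 4.90, 5.07 and 5.91 CPM, and at 12 h it was at 2.31, 2.76 and 2.66 CPM with Activin+BMP4 and at 3.20, 3.24 and 2.60 CPM with BMP4, all below the untreated libraries. At 48 h the treatments overlapped, at 4.68, 6.32 and 5.93 CPM with Activin+BMP4 and at 5.501, 7.41 and 5.99 CPM with BMP4. At 72 h they were apart, at 5.84, 7.004 and 6.02 CPM with Activin+BMP4 and at 3.08, 3.14 and 4.17 CPM with BMP4, a difference of -0.86 ± 0.14 on the log2 scale (adjusted p = 1.47e-06) that is under 2-fold. At 96 h CLDN1 was at 15.2, 13.7 and 12.7 CPM with Activin+BMP4 and at 1.46, 1.98 and 2.23 CPM with BMP4. The difference at 96 h was -2.86 ± 0.14 on the log2 scale, or 7.27-fold lower with BMP4 (adjusted p = 3.33e-21). From 48 to 96 h CLDN1 rose 2.45-fold with Activin+BMP4 (log2 SE 0.13) and fell by 1.73 ± 0.15 on the log2 scale with BMP4.

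CLDN18, which has forms of the stomach and of the lung, had 2 to 20 counts in 16 of the groups and 78 at 96 h of Activin+BMP4. It lies at chr3:137998735-138033655 on the plus strand. At 96 h its libraries were at 0.704, 1.07 and 0.939 CPM with Activin+BMP4 and at 0.192, 0.144 and 0.327 CPM with BMP4, without overlap. The difference was -2.00 ± 0.51 on the log2 scale (adjusted p = 0.000893). CLDN18 passed the filter on low counts only through the 96 h Activin+BMP4 group, as no library elsewhere was above 0.383 CPM. Its calls in comparisons that take in that group, here and below, are therefore no independent sign of a high level there. CLDN5, the main claudin of the endothelium of brain vessels, lies at chr22:19523024-19527545 on the minus strand and had 5 to 39 counts per group. At 96 h it was at 0.333, 0.402 and 0.626 CPM with Activin+BMP4 and at 0.192, 0.324 and 0.0655 CPM with BMP4. It was called lower with BMP4, by -1.23 ± 0.52 (adjusted p = 0.0428), but DESeq2 gave an adjusted p of 0.0744, and leaving out any of 4 of the 6 libraries ended the call: the adjusted p was 0.0523 and 0.188 without Activin+BMP4 replicates 2 and 3, and 0.0849 and 0.228 without BMP4 replicates 1 and 3.

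No difference between the treatments reached 2-fold in CLDN6 or CLDN7. Per kb, CLDN7 was second to CLDN6 except at 24, 36 and 48 h of BMP4, where CLDN10 was above it (41.3, 124 and 101 against 35.1, 34.4 and 36.1 CPM per kb). CLDN6 lies at chr16:3014712-3020071 and CLDN7 at chr17:7259903-7263983, both on the minus strand. CLDN6 was at 562.5, 539.5 and 537 CPM in untreated cells. At 48 h it was at 372, 381 and 364 CPM with Activin+BMP4 and at 516, 494 and 523 CPM with BMP4, and at 96 h at 327, 325 and 336 CPM against 306, 314 and 300.2 CPM. The treatments did not overlap at these times, and BMP4 was the higher at 48 h and the lower at 96 h. The log2 fold change of CLDN6 was 0.42, 0.40, 0.46 and 0.38 at 24, 36, 48 and 72 h, with an SE of 0.04 and an adjusted p of at most 3.33e-10 for each, and -0.10 ± 0.04 at 96 h (adjusted p = 0.0375). CLDN7 was at 74.5, 73.5 and 69.7 CPM in untreated cells, and at 96 h at 57.2, 57.3 and 61.9 CPM with Activin+BMP4 and at 40.1, 42.8 and 37.5 CPM with BMP4. The 96 h difference was -0.55 ± 0.06 (adjusted p = 2.7e-10).

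**Figure D2:**
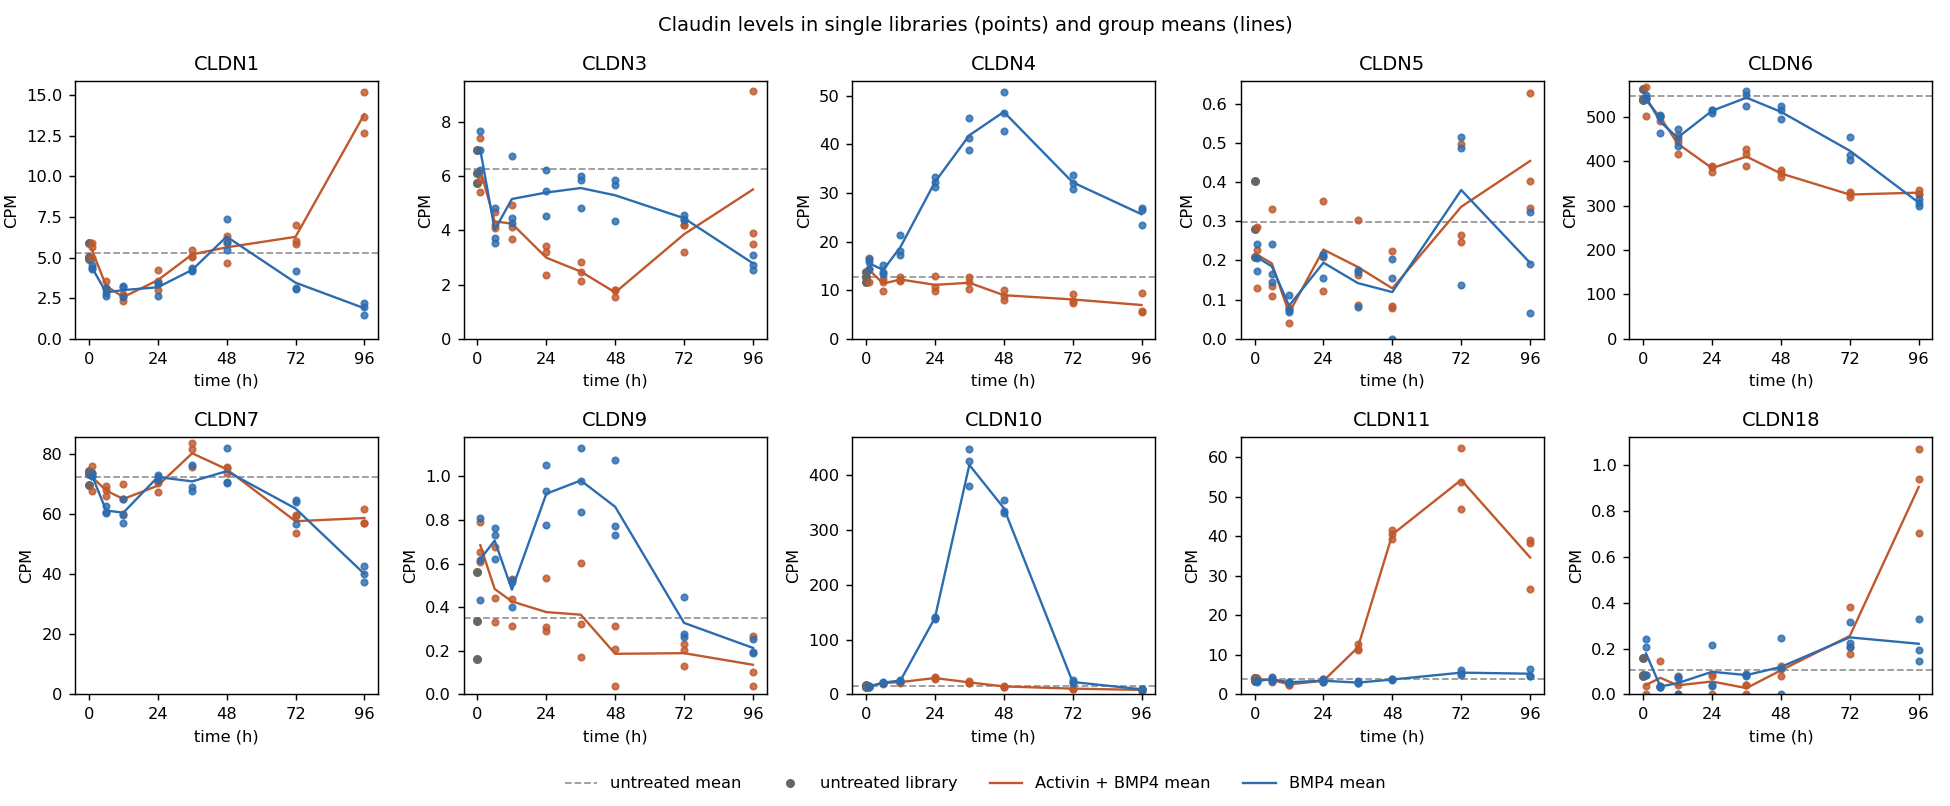
Each panel gives the level of 1 claudin in CPM against time in h, with a point per library and lines through the means of 3 libraries; grey points and the dashed line are untreated cells. CLDN10 reaches 381 to 448 CPM at 36 h of BMP4 and 8.84 to 10.1 CPM at 96 h, and CLDN11 reaches 46.9 to 62.2 CPM at 72 h of Activin+BMP4.

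Counted over the family, BMP4 against Activin+BMP4 gave 21 calls in 80 tests of 10 genes at 8 times, 14 higher and 7 lower with BMP4. At 1, 6 and 12 h no claudin was called by edgeR or DESeq2, where edgeR called 0.00510%, 0.505% and 1.42% of all genes. At an unadjusted p under 0.05 there were 2, 2 and 1 of 10. At 24 h CLDN4, CLDN9 and CLDN10 were called higher, against 4.01% of all genes called. At 36 and 48 h CLDN3, CLDN4, CLDN9 and CLDN10 were higher and CLDN11 lower, against 5.58% and 9.25% of all genes. At 72 h CLDN4 and CLDN10 were higher and CLDN11 lower, against 9.63%. At 96 h CLDN4 alone was higher, and CLDN1, CLDN5, CLDN11 and CLDN18 were lower, against 15.6% of all genes. The median log2 fold change of the 10 went from 0.58 at 24 h to -0.77 at 96 h, while that of all genes tested was 0.012 and 0.005.

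**Figure D3:**
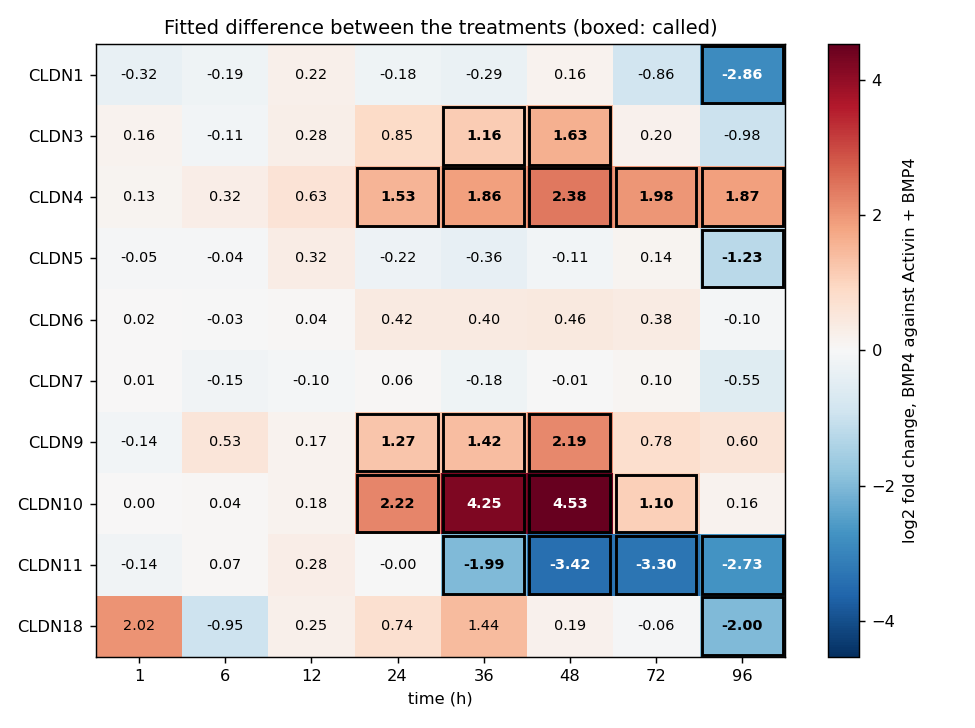
The grid gives the log2 fold change of BMP4 against Activin+BMP4 for each claudin (rows) at each time in h (columns), in red where BMP4 was higher and in blue where it was lower, with the called tests boxed. The boxes in red lie mostly at 24 to 48 h, with CLDN10 at 4.25 and 4.53, and the boxes in blue at 36 h and later.

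The difference between the treatments changed between 24 and 96 h in 5 of the 10 claudins, all towards lower with BMP4, against 13.6% of all genes called in either direction. The change was -2.68 ± 0.21 on the log2 scale for CLDN1, -1.84 ± 0.32 for CLDN3, -2.06 ± 0.14 for CLDN10, -2.72 ± 0.21 for CLDN11 and -2.73 ± 1.05 for CLDN18. The adjusted p was at most 6.57e-06 for the first 4 and 0.0304 for CLDN18, whose 24 h groups held 4 and 7 counts. Without BMP4 24 h replicate 1 the CLDN18 change was -1.57 (adjusted p = 0.405), and it was also lost without Activin+BMP4 24 h replicate 2 (adjusted p = 0.0909) or BMP4 96 h replicate 2 (adjusted p = 0.0581). Without Activin+BMP4 96 h replicate 3, the library that stood apart, the CLDN3 change was -1.26. CLDN10 lost a lead of BMP4, CLDN1 and CLDN11 gained a lead of Activin+BMP4, and CLDN3 had a lead of BMP4 of 0.85 at 24 h.

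Against untreated cells, Activin+BMP4 gave 12 calls in 80 tests, 6 higher and 6 lower. In order of time the 8 groups gave 0, 0, 2, 1, 2, 2, 1 and 4 calls, where 0.867%, 5.69%, 6.82%, 8.08%, 10.5%, 15.8%, 21.0% and 26.5% of all genes were called. Higher were CLDN11 at 36, 48, 72 and 96 h, up to 3.81 ± 0.13 on the log2 scale or 14.0-fold at 72 h, and CLDN1 and CLDN18 at 96 h, by 1.39 ± 0.13 and 3.01 ± 0.58. Lower were CLDN1 and CLDN5 at 12 h, CLDN3 at 24, 36 and 48 h, and CLDN9 at 96 h. CLDN3 fell by 1.87 ± 0.24 on the log2 scale at 48 h. CLDN1 fell by 1.03 ± 0.15 at 12 h, and by 0.95 (log2) without untreated replicate 3 and 0.96 without Activin+BMP4 replicate 1, both under 2-fold. CLDN3 at 24 h fell by 1.07 ± 0.23, and by 0.99 and 0.92 without untreated replicate 3 and Activin+BMP4 replicate 1. CLDN10 at 24 h was at 1.00 ± 0.10, just under 2-fold, and CLDN4 and CLDN10 at 96 h were at -0.87 and -0.84, and at -1.16 and -1.05 without the library that stood apart. At 1 and 6 h 1 and 4 of 10 had an unadjusted p under 0.05, and DESeq2 called 0 at both. The 12 h call of CLDN5 rests on 5 counts against 22 and was lost without untreated replicate 1 (adjusted p = 0.0628) or Activin+BMP4 replicate 1 (adjusted p = 0.0548). The 96 h call of CLDN9, whose libraries overlap, was lost without untreated replicate 1 (adjusted p = 0.222) or Activin+BMP4 replicate 1 (adjusted p = 0.125) or 3 (adjusted p = 0.0709).

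BMP4 against untreated cells gave 14 calls in 80 tests, 11 higher and 3 lower. In order of time there were 0, 0, 1, 3, 3, 3, 1 and 3. Of all genes 1.21%, 4.99%, 5.62%, 7.21%, 8.41%, 12.2%, 16.9% and 23.2% were called at these times. CLDN4, CLDN9 and CLDN10 were higher at 24, 36 and 48 h, CLDN10 by up to 4.80 ± 0.09 on the log2 scale or 27.9-fold at 36 h. CLDN4 was also higher at 72 h, by 1.33 ± 0.12, and at 96 h, by 1.00 ± 0.12, on the threshold. Lower were CLDN5 at 12 h, and CLDN1 and CLDN3 at 96 h by 1.47 ± 0.15 and 1.17 ± 0.22. Both sets of comparisons share the 3 untreated libraries. At 1 and 6 h 1 and 6 of 10 had an unadjusted p under 0.05, and DESeq2 called 0 at both. The call of CLDN5 at 12 h was lost without untreated replicate 1 (adjusted p = 0.114) or BMP4 replicate 1 (adjusted p = 0.0793) or 2 (adjusted p = 0.074). The calls of CLDN9 at 24 and 48 h were lost without untreated replicate 2, with adjusted p of 0.0597 and 0.0747. CLDN4 at 96 h was under 2-fold without untreated replicate 2 (0.95), BMP4 replicate 1 (0.97) or BMP4 replicate 2 (0.98), and also with DESeq2.

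Within treatments, 10 calls were made in 40 tests, 6 higher and 4 lower at the later time. From 24 to 48 h of Activin+BMP4 CLDN11 rose and CLDN10 fell, against 8.54% of all genes called, and from 48 to 96 h CLDN1, CLDN3, CLDN5 and CLDN18 rose, against 16.5%. From 24 to 48 h of BMP4 CLDN10 rose, against 5.70%, and from 48 to 96 h CLDN1, CLDN9 and CLDN10 fell, against 12.8%. The rise of CLDN5 was 1.76 ± 0.56 (adjusted p = 0.00628), and 1.24 (adjusted p = 0.128) with the 3 libraries that stood apart left out together.

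The other tight junction genes of a list of 29, all of them tested, gave 5 calls at 48 and 96 h together. At 48 h 3 of 29 were higher with BMP4 and 0 lower, beside 9.25% of all genes called, with a median log2 fold change of 0.352 against -0.004 over all genes. TJP3, the ZO-3 scaffold, was at 18.8, 22.2 and 19.5 CPM with BMP4 and at 3.89, 3.08 and 4.05 CPM with Activin+BMP4, a difference of 2.45 ± 0.19 on the log2 scale (adjusted p = 9.2e-15). EPCAM, an adhesion protein that stabilises CLDN7, was at 319, 317 and 334 CPM against 145, 158 and 153 CPM, a difference of 1.09 ± 0.04 (adjusted p = 5.05e-24). Occludin (OCLN) was higher by 0.33 ± 0.06 on the log2 scale (adjusted p = 2.96e-06) and cingulin (CGN) by 0.95 ± 0.04 (adjusted p = 7.1e-24), both under 2-fold.

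At 96 h 1 of 29 was higher and 1 lower with BMP4, the latter being ILDR1, a protein of tricellular junctions. Of all genes 15.6% were called there, and the median of the 29 was -0.061 against 0.005 over all genes. OCLN was then lower by 0.95 ± 0.06 on the log2 scale (adjusted p = 2e-18), EPCAM by 0.59 ± 0.04 (adjusted p = 1.68e-15) and F11R, the junction adhesion molecule JAM-A, by 0.61 ± 0.05 (adjusted p = 6.19e-13). None of these reached 2-fold. They are uncalled genes of the lower side, and OCLN and F11R were named after their values were seen. They do not stand for the 29. TJP3 was at 8.83, 9.33 and 9.89 CPM with BMP4 and at 6.48, 8.43 and 11.9 CPM with Activin+BMP4, which overlap. Counts at the other times were 0 of 29 at 1, 6 and 12 h and 1 at 24 h (TJP3). There were 2 at 36 h (among them TJP3) and 2 at 72 h (among them CGN). All of these were higher with BMP4. Of all genes 0.00510%, 0.505% and 1.42% were called at 1, 6 and 12 h. At 24, 36 and 72 h the share was 4.01%, 5.58% and 9.63%. At 1, 6 and 12 h 2, 4 and 8 of 29 had an unadjusted p under 0.05, and DESeq2 called 0.

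**Figure D4:**
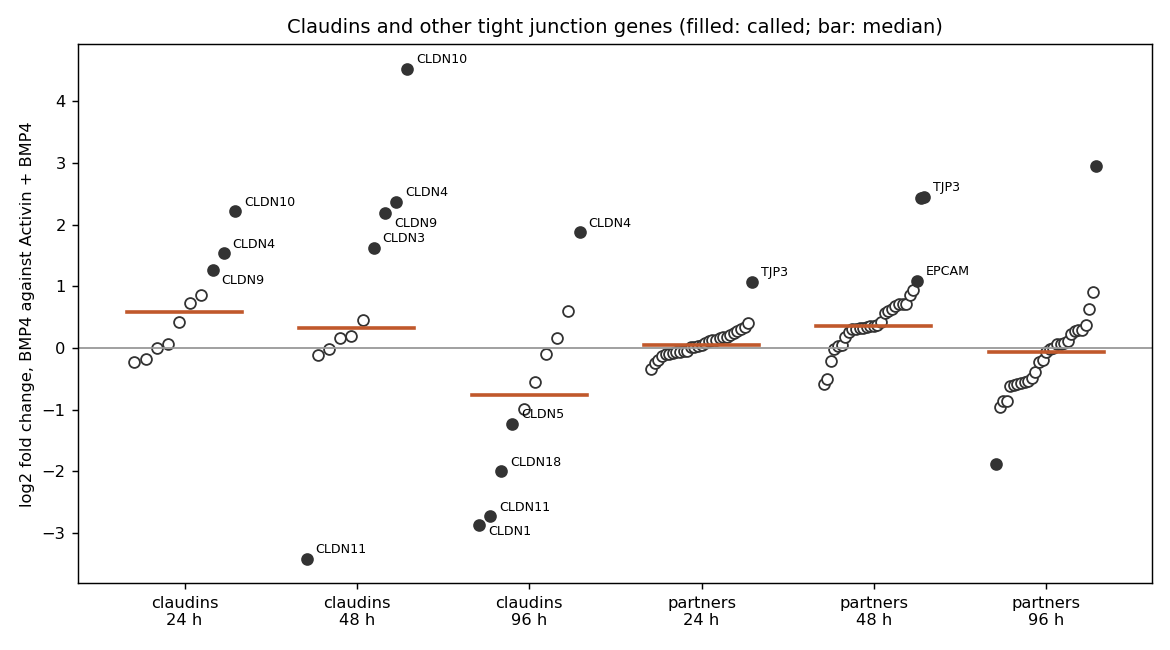
Points give the log2 fold change of BMP4 against Activin+BMP4 for the 10 claudins and the 29 tight junction partners at 24, 48 and 96 h, filled where called, with bars at the medians. Names mark called claudins, and called partners whose higher mean reached 10 CPM. At 48 h the claudins spread from -3.42 to 4.53, and 3 partners are called.

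Of the 6 further claudins tested, CLDN16, CLDN19 and CLDN22 were lower with BMP4 at 96 h, against 15.6% of all genes called. CLDN19, which with CLDN16 serves magnesium uptake in the kidney, was at 6.04 ± 0.139 CPM with BMP4 and at 18.1 ± 2.63 CPM with Activin+BMP4, a difference of -1.58 ± 0.10 on the log2 scale (adjusted p = 2.54e-18). Of 16 regulators of epithelial state, 5 were higher (GRHL1, GRHL2, GRHL3, TFAP2A, TFAP2C) and 4 lower (SNAI1, SNAI2, ZEB1, ZEB2) with BMP4 at 48 h, against 9.25% of all genes called. At 96 h 7 were higher (GRHL1, GRHL3, TFAP2A, SNAI1, SNAI2, ZEB2, TWIST1) and OVOL1 lower, against 15.6%. GRHL3, a Grainyhead factor of surface epithelia, was at 36.9 ± 0.434 CPM at 48 h of BMP4 and 3.78 ± 0.385 CPM with Activin+BMP4. SNAI2, a repressor of epithelial genes, was at 1.61 ± 0.184 against 3.60 ± 0.0906 CPM at 48 h and at 76.0 ± 6.44 against 0.793 ± 0.102 CPM at 96 h.

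Markers of cell types moved with the treatments beside these results. At 48 h all 6 amnion markers were called higher with BMP4 and all 5 definitive endoderm markers lower, against 9.25% of all genes called. The amnion markers (ISL1, TFAP2A, GABRP, VTCN1, IGFBP3, WNT6) summed to 102 to 105 CPM at 36 h, 293 to 299 CPM at 48 h and 1380 to 1570 CPM at 96 h of BMP4, and to 28.8 to 31.1, 23.1 to 23.8 and 10.0 to 12.7 CPM at those times of Activin+BMP4. The definitive endoderm markers (SOX17, FOXA2, GATA4, CXCR4, HHEX) summed to 162 to 175 CPM at 48 h and 498 to 666 CPM at 96 h of Activin+BMP4, and to 8.91 to 9.92 and 68.3 to 78.9 CPM with BMP4. The 5 mesenchymal markers (PDGFRA, TWIST1, PRRX1, COL3A1, VIM) summed to 88.4 to 101 CPM at 48 h and 330 to 368 CPM at 72 h of BMP4, below the 307 to 329 and 606 to 695 CPM of Activin+BMP4. Single markers did not all follow the sum. At 48 h PRRX1 and COL3A1 were called higher and PDGFRA and VIM lower with BMP4, where 9.25% of all genes were called. At 72 h PRRX1 and COL3A1 were called higher and VIM lower, against 9.63%. At 96 h the order of the sums was turned, at 1760 to 2040 CPM with BMP4 and 479 to 726 CPM with Activin+BMP4. All 5 were then called higher with BMP4, against 15.6% of all genes. The 6 endothelial markers (PECAM1, CDH5, TEK, KDR, TIE1, ERG) summed to 357 to 380 CPM with BMP4 and 524 to 545 CPM with Activin+BMP4 at 48 h, and to 767 to 1000 CPM and 208 to 218 CPM at 96 h. PECAM1 was not tested. Of the other 5 endothelial markers only TEK and KDR were called higher with BMP4 at 96 h, against 15.6% of all genes. TIE1 and ERG were called lower than in untreated cells under both treatments at that time. Of all genes 23.2% were called against untreated cells with BMP4 and 26.5% with Activin+BMP4. Of the 5 trophoblast markers (CGA, CGB3, GCM1, XAGE2, PGF) only PGF passed the filter on low counts. They summed to 9.99 to 12.8 CPM with BMP4 and, with CGA and XAGE2 at 0, to 2.33 to 2.54 CPM with Activin+BMP4 at 96 h, where PGF was called higher with BMP4. Of the 3 neural markers (PAX6, SOX1, NEUROG2) only PAX6 passed the filter. They summed to 8.56 to 13.7 CPM with BMP4 and to 31.1 to 44.2 CPM with Activin+BMP4 at 96 h, where PAX6 was called lower with BMP4. The 5 pluripotency markers summed to 4610 to 4790 CPM at 48 h and 2680 to 2840 CPM at 96 h of BMP4, and to 4000 to 4150 and 2990 to 3390 CPM at those times of Activin+BMP4. At 96 h POU5F1, NANOG, SOX2 and DPPA4 were called lower than in untreated cells with BMP4, against 23.2% of all genes called. With Activin+BMP4 SOX2 and DPPA4 were called lower, against 26.5%. These calls stand beside the lower levels of CLDN6 and CLDN7. WNT6 was at 0 in the untreated libraries and PRRX1 at 72 h of Activin+BMP4. The part of these markers in the claudin results was not tested. In such bulk libraries, fewer cells that make a claudin and less of its RNA per cell cannot be told apart.

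Among themselves the claudins followed several courses. Over the 17 group means of log2 CPM, Pearson r was 0.827 between the neighbours CLDN6 and CLDN9 and 0.325 between the neighbours CLDN3 and CLDN4. CLDN4 and CLDN10 had r = 0.771, CLDN9 and CLDN10 r = 0.780, and CLDN9 and CLDN11 r = -0.705. These values are descriptions over groups that follow one another in time, and no test was made of them.

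For the 7 claudins whose group means span at least 1 on the log2 scale, the 3 genes with the most similar course over the same 17 means were looked up. For CLDN10 they included POSTN, which encodes the matrix protein periostin (r = 0.94) and REPS1 (r = 0.92). POSTN was at 34.3, 39.5 and 45.0 CPM at 36 h of BMP4 and at 3.30, 2.27 and 2.26 CPM at 96 h. For CLDN4 they were PPM1L (r = 0.96), METRNL (r = 0.96) and EPN3 (r = 0.95), and for CLDN11 RFPL2 (r = 0.98), ABCC9 (r = 0.97) and FAR2 (r = 0.96). For CLDN18 they were APOA2, VCAM1 and CYBA (r from 0.95 to 0.96), all 3 highest at 96 h of Activin+BMP4. CLDN18 had means of at most 0.255 CPM in the other groups and 0.90 CPM at 96 h of Activin+BMP4. These r therefore rest mainly on that group. APOA2, an apolipoprotein, was at 18.9, 22.6 and 12.1 CPM there and at 0.845, 0.793 and 0.753 CPM with BMP4. For CLDN1 they were SLC9A7, OR52A1 and CHST9 (r = 0.90 each), for CLDN3 PNPLA6, KNDC1 and USP9X (r from 0.93 to 0.95), and for CLDN9 SLC7A8, INPP5J and HMCN2 (r from 0.90 to 0.91).

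Motif letters were counted in the 250 bases before each RefSeq start, on both strands. Grainyhead letters (AACCGGTT) were in none of the 12 windows of 8 claudins and in 0.117% of all 35116 windows. The E-box CAGGTG, which SNAI and ZEB proteins bind, was present in 1 of the 2 windows of CLDN7, 4 times, and once in 1 of the 2 windows of CLDN18, against 17.5% of all windows. The SMAD letters CAGAC were in the window of CLDN4 (1 match), that of CLDN6 (2 matches) and 1 window each of CLDN7, CLDN10 and CLDN18, against 38% of all windows. The windows of CLDN1, CLDN3 and CLDN11 held none of the 3. CLDN5 and CLDN9 had no window. A match describes letters only.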

How the data were processed

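RNA was measured in 51 libraries of H1 cells (17 groups of 3). The authors deposited 1 table of read counts per gene with 58051 rows. Per the submitters' processing notes, cutadapt 1.5, STAR 2.5.2a, RSEM 1.3.0 and the GRCh38 build were used. The annotation release, the strand setting and whether the whole numbers are rounded estimates are not given in the sources used here.

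Counts were tested as deposited with edgeR 4.0.16 (glmQLFit, glmQLFTest, TMM) in R 4.3.3, with 1 mean per group, after a filter with a minimum count of 10 and a minimum total of 15. The 19603 genes kept held 99.95% of all counts. P-values were adjusted by Benjamini-Hochberg over all genes tested in each comparison. The SE is the log2 fold change divided by the root of its F statistic. Levels per length used the exons of each gene in GENCODE 29, merged over its transcripts, and are given per kb. After the main fit, 1 edgeR comparison was also run on simulated counts that took their totals and spread from that fit. Its outcome is not reported here. Promoter windows of RefSeq (GRCh38.p14) matched 8 of the 10 claudins.

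All 10 claudins are named. For claudins whose group means span at least 1 on the log2 scale, the 3 genes with the highest Pearson r among those reaching 5 CPM in a group are named (0.5 CPM added before the log). Partners were named from those called with at least 10 CPM. ILDR1, OCLN, CGN and F11R, and the other genes named from lists with few calls, were chosen after their values were seen. Some genes that the rule or a count takes in are not reported here. The members and all gene lists were chosen with earlier results of these data known. Replicate numbers did not pair the libraries: of 24 same-numbered pairs 1 correlated above 0.1. Alternatives were RLE factors, unscaled totals, no filter, a stricter filter, DESeq2 1.42.0, a fit of only the groups compared, a replicate block and each library left out. Leaving out the 3 libraries that stood apart together, and full exon lengths, were added after seeing the data.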

Additional observations from a re-analysis of the deposited data

Results flagged for a closer look

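The difference between BMP4 and Activin+BMP4 changed between 24 and 96 h in 5 claudins, by the interaction term of the edgeR fit. The change was -2.68 on the log2 scale for CLDN1 (adjusted p = 1.62e-14), from -0.18 to -2.86. It was -1.84 for CLDN3 (adjusted p = 6.57e-06), from 0.85 to -0.98. It was -2.06 for CLDN10 (adjusted p = 9.77e-16), from 2.22 to 0.16. It was -2.72 for CLDN11 (adjusted p = 1.59e-14), from -0.00 to -2.73. It was -2.73 for CLDN18 (adjusted p = 0.0304), from 0.74 to -2.00, and that of CLDN18 rests on 4 and 7 counts at 24 h. CLDN18 passed the filter only through its level at 96 h of Activin+BMP4, a group that this change takes in.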

How the results depend on the processing

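The counts of claudin calls stayed within 1.5 times their reported values under the 8 alternatives. BMP4 against Activin+BMP4 gave 21 calls as reported, 21 with the replicate block and 16 with the stricter filter, which removes CLDN5, CLDN9 and CLDN18. Leaving out each library in turn, over 51 fits, gave 20 to 22 calls for this comparison, 10 to 14 for Activin+BMP4 against untreated cells, 11 to 15 for BMP4 against untreated cells, 4 to 5 for the change between 24 and 96 h, 10 to 11 within treatments and 5 to 6 for the partners. The replicate block changed no claudin call. Of 135 single tests with an adjusted p under 0.05, 0 changed direction and 22 changed their call under at least 1 alternative; the calls concerned lie near 2-fold or rest on low counts. Scaling moved the median of all genes by at most 0.049 (log2). CLDN5, CLDN9 and CLDN18, with as few as 2 counts per group, limit what can be said of them at this depth. Over all genes, the stricter filter, which leaves out genes of low level, gave fewer calls. What lowered the counts was not tested. BMP4 against Activin+BMP4 went from 787, 1094, 1814, 1888 and 3052 calls at 24, 36, 48, 72 and 96 h to 517, 716, 1121, 1096 and 1804. Activin+BMP4 against untreated cells went from 170, 1115, 1336, 1583, 2058, 3098, 4116 and 5187 calls in order of time to 81, 626, 800, 980, 1324, 1979, 2596 and 3383. BMP4 against untreated cells went from 238, 979, 1102, 1413, 1649, 2395, 3311 and 4543 to 106, 540, 630, 845, 1004, 1480, 2049 and 2893. Within treatments it went from 1675, 3243, 1118 and 2508 to 1034, 1904, 669 and 1522. Without a filter, BMP4 against Activin+BMP4 at 1 and 6 h went from 1 and 99 to 148 and 243, and the 1 h groups against untreated cells from 170 and 238 to 297 and 406. At 1 h BMP4 against Activin+BMP4 had 7 calls with DESeq2 and 20 when the other groups were left out of the model.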
